A study of Mus musculus with 11 samples.

Results

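Colonic macrophage genes were represented by 10 genes: Cx3cr1, Adgre1, Cd163, Mrc1, Cd68, Lyz2, Ccr2, Itgax, C1qa and Csf1. They were taken as every probe set that the platform annotation assigns to exactly 1 of these symbols, which gave 17 probe sets of the 34945 with a single gene symbol, and 10 of 18193 genes. Cx3cr1 had 2 probe sets, Ccr2 and Csf1 had 4 each, and the other 7 genes had 1 each. All 10 genes entered the tests, because no filter on level was applied, and none of them was at exactly 0 on any array in the probe set used.

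The values come from colon of adult C57BL/6 mice on a 1-colour expression array. The control group had 3 arrays of colon taken before imatinib, and 4 arrays each came from mice given imatinib 3 h and 12 h before. No vehicle-injected mice and no controls taken at matched hours were analysed here, so drug, injection and hour of harvest cannot be told apart in the comparisons with control. The labels do not say whether the replicates of a group came from separate mice, so the p-values reflect only how far these arrays scatter.

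Macrophages of the gut wall are renewed largely by blood monocytes that enter through the chemokine receptor CCR2 and mature into resident cells rich in CX3CR1 and F4/80. The survival of these cells depends on the receptor tyrosine kinase CSF1R and its ligands CSF1 and IL-34. Imatinib blocks the ABL kinases, and CSF1R is among the other tyrosine kinases that it inhibits.

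At 3 h Cx3cr1 was the 1 member called: the mean signal of its brighter probe set fell by 77.4%, from 55.8 to a dim 12.6. At 12 h that probe set was back near the control level. The dimmer probe set of Cx3cr1 had a lower mean than controls at both times, with no call. No other member passed the test in any comparison. That is 1 of 10 genes at 3 h, where 2.54% of all genes tested were called, and 0 of 10 at 12 h, where 1.62% were. Between 12 h and 3 h it is again 1 of 10, beside 4.08% of all genes. The ligand gene Csf1 and the F4/80 gene Adgre1 had the lowest unadjusted p of the members at 12 h, with Csf1 higher and Adgre1 lower than control, but both missed the threshold. Beyond the members, Csf1r, the gene of the CSF1 receptor, fell at 12 h and the transcription factor gene Maf rose at 3 h, and each of these calls was lost on leaving out single arrays.

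The signal is the array's linear brightness for 1 probe set, scaled so that each array has the same trimmed mean, and it is compared only within a probe set. Changes were tested as log2(signal + 16) with limma, a linear model with moderated variances fitted to all genes and all 11 arrays. They are given with the standard error (SE) and, where useful, the 95% confidence interval. A gene was called when the limma p adjusted over all 18193 genes was below 0.05. The offset of 16 shrinks the change of dim genes, so the log2 changes below are smaller than the ratios of the signals.

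In bulk tissue, fewer cells of a type and less RNA per cell cannot be told apart. Colon epithelial markers had a summed signal between 41839.9 and 57961.7 on all 11 arrays, with ranges that overlapped between the groups. Pancreatic acinar transcripts set 5 arrays apart, namely control replicate 1, 3 h replicate 3 and 12 h replicates 1, 3 and 4, which stood above the widest gap in the mean level of 14 such genes. The calls of Cx3cr1, Csf1r and Maf are given with and without those arrays, as are member changes whose sign turned. The other changes are not given without them. The 3′ to 5′ signal ratio of Gapdh, a measure of RNA integrity, ranged from 0.762 to 0.908 over the 11 arrays, with overlap between the groups.

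**Figure D1:**
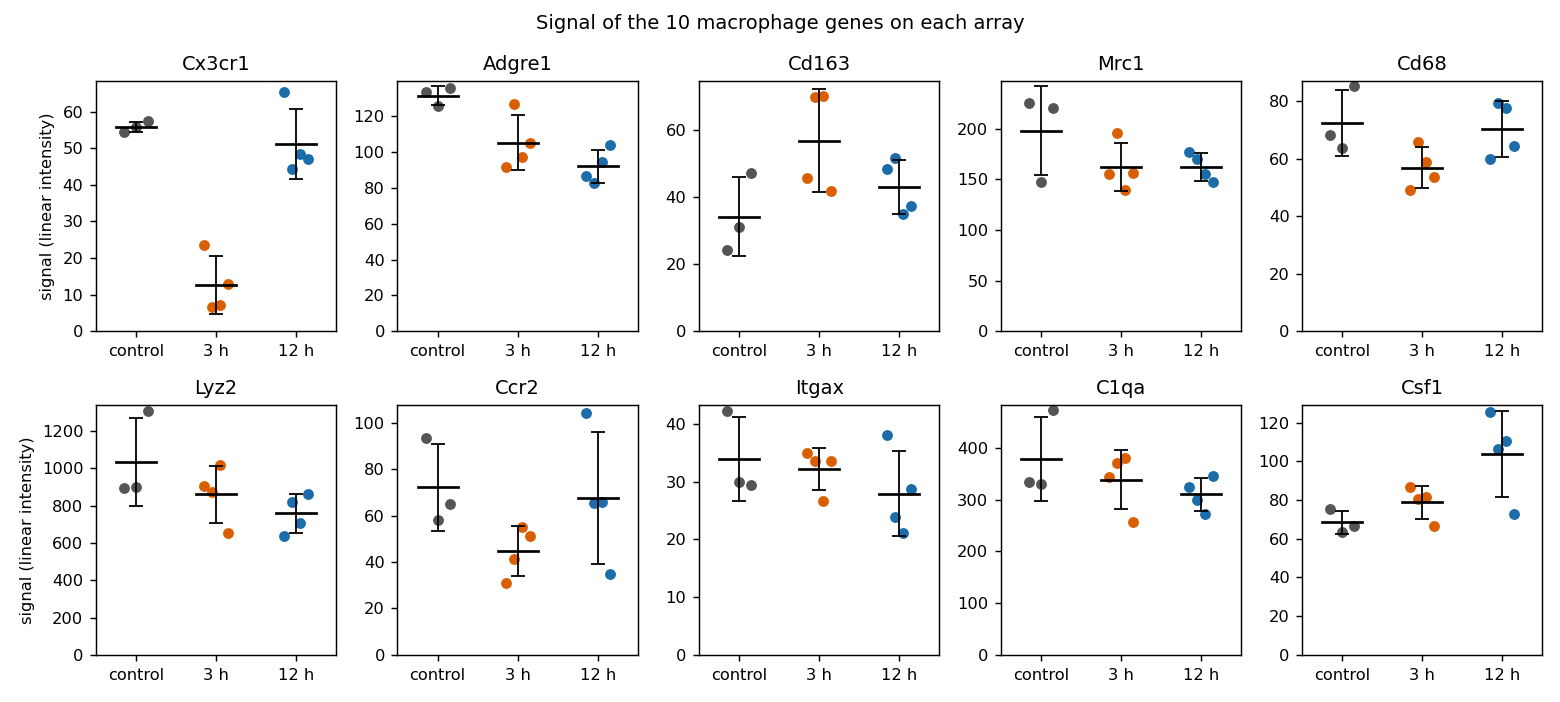
Signal of each of the 10 genes (linear intensity) on each array, by group (control n = 3, imatinib 3 h n = 4, imatinib 12 h n = 4). Points are arrays, horizontal lines are means and error bars are SD; the 4 points of Cx3cr1 at 3 h lie between 6.7 and 23.6, below all control and all 12 h points.

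Cx3cr1 encodes the receptor of the chemokine fractalkine and marks mature gut macrophages. Its brighter probe set gave signals of 54.4, 55.7 and 57.3 in the controls. At 3 h the signals were 23.6, 6.7, 7.2 and 12.9, and at 12 h they were 65.3, 44.2, 48.5 and 46.9. Every 3 h array was below every control array and below every 12 h array, while the 12 h arrays lay on both sides of the controls.

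The mean signal was 55.8 ± 1.45 (SD, n = 3) in controls, 12.6 ± 7.85 (SD, n = 4) at 3 h and 51.2 ± 9.55 (SD, n = 4) at 12 h. The log2 change at 3 h was -1.37 ± 0.18 (SE; limma adjusted p = 0.00231), a 2.58-fold fall on the offset scale. Between 3 h and 12 h Cx3cr1 rose by 1.26 ± 0.17 (SE; limma adjusted p = 0.00145), which is 2.4-fold on the offset scale and a ratio of 4.07 between the mean signals. The change from control to 12 h was -0.10, with a 95% interval of -0.49 to 0.28 (limma adjusted p = 0.849). A moderate fall or a small rise at 12 h thus lies within the error.

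The 3 h fall and the later rise of Cx3cr1 were called in all 11 fits that left out 1 array, with limma adjusted p of at most 0.0159 and 0.00644. Without the 5 arrays high in acinar transcripts the 2 changes were -1.29 (limma adjusted p = 0.097) and 1.02 (limma adjusted p = 0.298), so both calls were lost in that fit of 6 arrays, where 12 h had 1 array. Their size depended on the offset: with an offset of 1 the 3 h change was -2.23 and the later rise 2.09, and with an offset of 64 they were -0.65 and 0.59.

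The second Cx3cr1 probe set was dimmer. Its signals were 19.9, 9.7 and 25.2 in controls, 1.8, 4.9, 10 and 1.1 at 3 h, and 7.1, 11, 12.3 and 7.3 at 12 h. It was lowest at 3 h as well, but 1 of the 3 h arrays overlapped the controls, and the 12 h arrays lay below 2 of the 3 controls. Its 3 h change of -0.74 was not called when all probe sets were fitted separately (limma adjusted p = 0.0741). Nor was its change of 0.33 from 3 h to 12 h (limma adjusted p = 0.385). From control to 12 h it changed by -0.41 (95% interval -0.80 to -0.01, limma adjusted p = 0.354), also with no call. The return to the control level was therefore seen in 1 of the 2 probe sets.

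**Figure D2:**
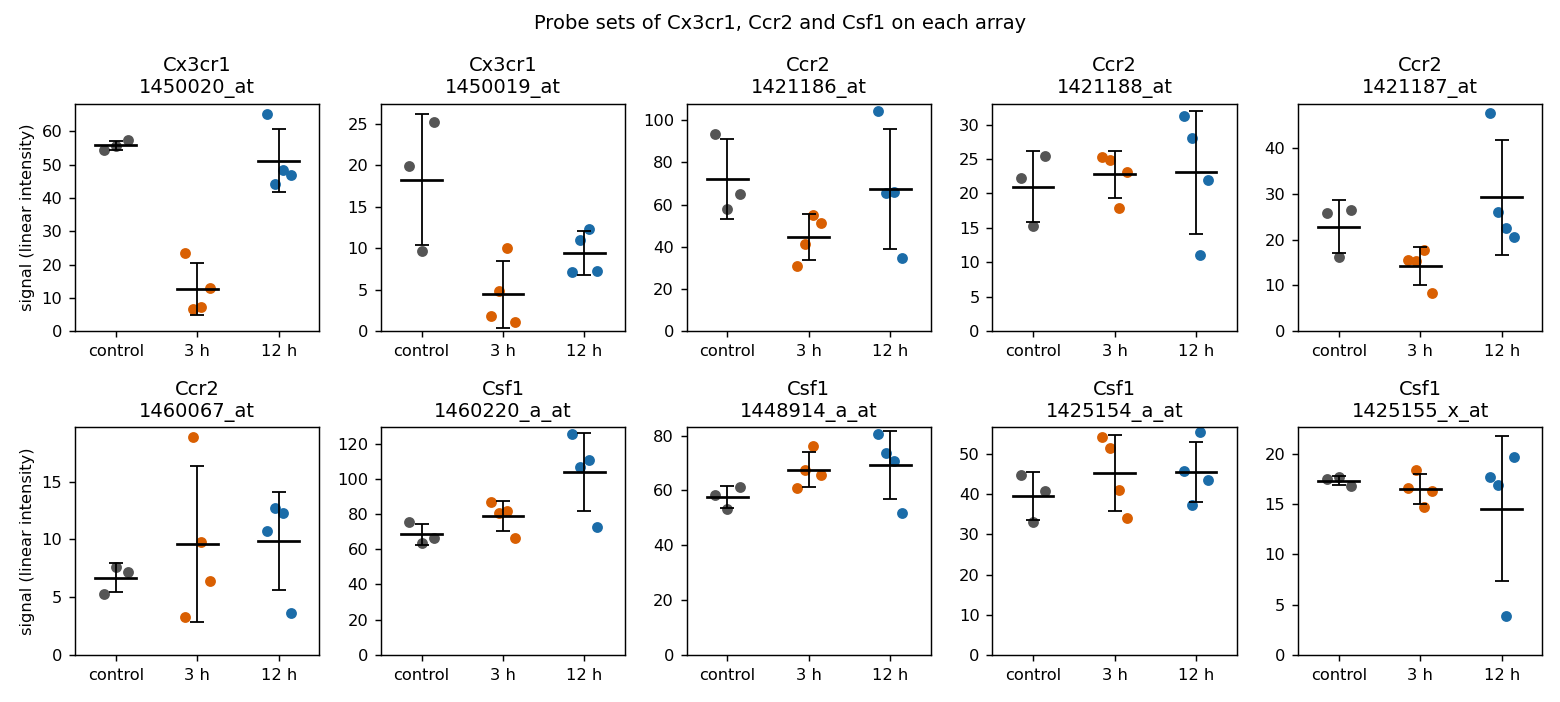
Signal (linear intensity) on each array of the 2 probe sets of Cx3cr1, the 4 of Ccr2 and the 4 of Csf1, by group (n = 3, 4 and 4), with means as horizontal lines, SD as error bars and a separate axis from 0 in each panel. The 3 h points of Cx3cr1 are low in both panels, while the panels of Ccr2 and of Csf1 differ from each other in their order of groups.

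Fractalkine itself is encoded by Cx3cl1, made by epithelium and endothelium. Its signals were 327.5, 308.5 and 286.1 in controls, 264.1, 287.5, 263.1 and 258.9 at 3 h, and 241.2, 242.3, 222.1 and 242.7 at 12 h. All 12 h arrays were below all control and all 3 h arrays, whereas 1 of the 3 h arrays reached the control range. The log2 change was -0.18 ± 0.09 at 3 h (limma adjusted p = 0.367) and -0.35 ± 0.09 at 12 h (limma adjusted p = 0.0753), so neither was called. The 12 h change passed when only genes with a mean signal of at least 32 were tested (limma adjusted p = 0.0354), with an offset of 64 (-0.30, limma adjusted p = 0.0178) and with a trended robust variance prior (limma adjusted p = 0.0485). With its 4 probe sets averaged it was -0.10 (limma adjusted p = 0.677). The second brightest of them changed by -0.16 at 12 h. The remaining ones were dim, with means of 3.9 and 1.6 in controls, and changed by 0.14 and -0.03. At 12 h, when the ligand's values were lowest, the brighter Cx3cr1 probe set was close to control.

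Ccr2 encodes the receptor by which monocytes leave the marrow and enter tissue. The brightest of its 4 probe sets had signals of 93.5, 58.1 and 64.8 in controls and 30.8, 41.5, 55.2 and 51.4 at 3 h. The 12 h signals were 104.1, 65.5, 65.9 and 34.7. All 3 h arrays were below all controls, while the 12 h arrays spanned both other groups.

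The Ccr2 means were 72.1 ± 18.8 (SD, n = 3), 44.7 ± 10.9 (SD, n = 4) and 67.5 ± 28.4 (SD, n = 4). The 3 h change of -0.54 ± 0.25 did not pass the test (95% interval -1.08 to 0.01, limma adjusted p = 0.348). The other 3 probe sets had 3 h changes of 0.08, -0.36 and 0.14, so the 4 probe sets did not share a direction at 3 h. Ccr2 at 12 h was -0.12 from control (95% interval -0.67 to 0.43), and its sign turned on leaving out control replicate 1 or 12 h replicate 4.

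The ligands of CCR2 include Ccl2 and Ccl7, the monocyte chemoattractants. Ccl2 had signals of 26.0, 25.2 and 24.7 in controls, 63.2, 113.6, 76.9 and 51.4 at 3 h, and 132.2, 136.1, 111.4 and 9.5 at 12 h. Every 3 h array and 3 of the 4 arrays at 12 h were above every control, and 12 h replicate 4 was below them all. The changes of 1.12 ± 0.51 at 3 h (limma adjusted p = 0.326) and 1.16 ± 0.51 at 12 h (limma adjusted p = 0.289) were not called. Without 12 h replicate 4 the 12 h change was 1.78 (limma adjusted p = 0.00115), and the 3 h change, the same in size, was called too (limma adjusted p = 0.0103). The 3 h change was also called when only the control and 3 h arrays were fitted (limma adjusted p = 0.0267).

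Ccl7, singled out after its values were seen, had the same array apart: 12.9, 13.3 and 15.2 in controls, 36.3, 70.5, 37.6 and 23.8 at 3 h, and 120.7, 74.1, 64.8 and 13.9 at 12 h. Its 12 h change was 1.31 ± 0.41 (limma adjusted p = 0.135), and 1.75 without 12 h replicate 4 (limma adjusted p = 0.00668). Of the 5 ligands of CX3CR1 and CCR2 measured, none was called in the fit of all 11 arrays at the settings given above. Unadjusted limma p was below 0.05 for 2 of them at 3 h and for 4 at 12 h, beside 15% and 15.8% of all genes.

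**Figure D3:**
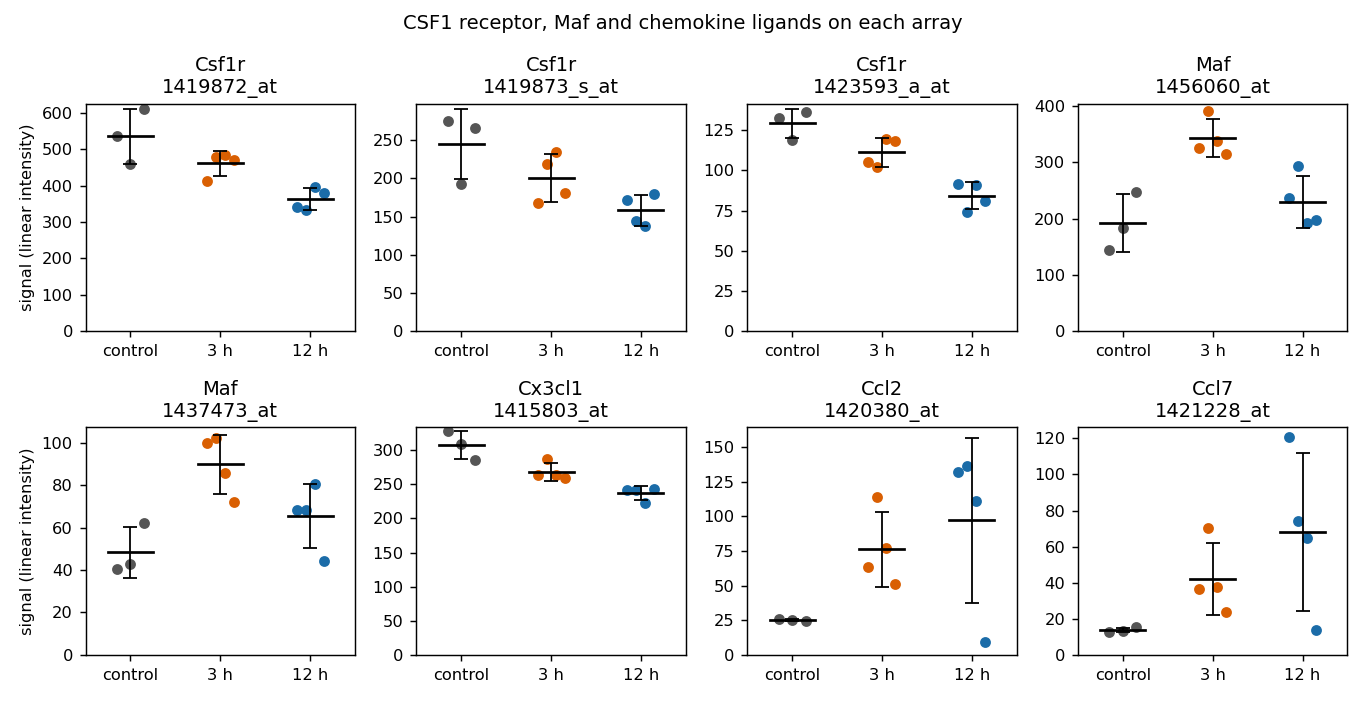
Signal (linear intensity) on each array of 3 probe sets of Csf1r, 2 of Maf and 1 each of Cx3cl1, Ccl2 and Ccl7, by group (n = 3, 4 and 4), with means as horizontal lines and SD as error bars. Ccl2 at 12 h shows 3 points between 111.4 and 136.1 and 1 at 9.5, and the 12 h points of the brightest Csf1r probe set lie between 333.4 and 397.0, below all its control points.

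Csf1 encodes the growth factor that sustains macrophages. The brightest of its 4 probe sets had signals of 75.2, 63.6 and 66.4 in controls, 86.7, 80.3, 81.6 and 66.6 at 3 h, and 125.3, 106.5, 110.6 and 72.7 at 12 h. At 12 h 3 of the 4 arrays were above all other arrays, and 12 h replicate 4 lay within the control range. The means were 68.4 ± 6.05 (SD, n = 3), 78.8 ± 8.59 (SD, n = 4) and 103.8 ± 22.2 (SD, n = 4).

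The 12 h change of Csf1 was 0.49 ± 0.15 (95% interval 0.16 to 0.81; unadjusted p = 0.00654, limma adjusted p = 0.128), and the 3 h change was 0.17 ± 0.15 (limma adjusted p = 0.692). Without 12 h replicate 4, Csf1 was called at 12 h against control (0.62, limma adjusted p = 0.0208) and against 3 h (0.46, limma adjusted p = 0.0414). In the other 10 fits that left out 1 array it was called in neither comparison. The other 3 probe sets changed by 0.20, 0.14 and -0.16 at 12 h, so the difference was largest in the brightest. On 12 h replicate 4 the signal was the lowest of its group in 2 of the 4 probe sets, including the brightest.

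Il34, the other ligand gene of the receptor, had means of 25.9 ± 4.15 (SD, n = 3), 22.0 ± 7.06 (SD, n = 4) and 24.9 ± 7.26 (SD, n = 4). Its changes from control were -0.16 at 3 h and -0.04 at 12 h, and neither was called (limma adjusted p = 0.753 and 0.943).

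Csf1r encodes the receptor for both ligands. Its signals were 535.1, 458.4 and 610.8 in controls, 411.7, 479.6, 482.7 and 468.8 at 3 h, and 340.8, 333.4, 397.0 and 380.7 at 12 h. Every 12 h array was below every control and every 3 h array. The change at 12 h was -0.53 ± 0.12 (SE; limma adjusted p = 0.0445), and at 3 h it was -0.20 ± 0.12 (limma adjusted p = 0.472).

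The other 2 probe sets of Csf1r changed by -0.57 and -0.54 at 12 h. The call was near the threshold: it held in 1 of the 11 fits that left out 1 array, that without 12 h replicate 4. Over the 11 fits the change stayed between -0.64 and -0.44, and the limma adjusted p reached 0.141. Without the 5 arrays high in acinar transcripts it was -0.64 (limma adjusted p = 0.445).

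Of the 10 genes on the list of the CSF1 receptor axis, which holds ligands, receptors and transcription factors of the lineage, 9 were measured. Maf rose at 3 h, Csf1r fell at 12 h, and none was called between 12 h and 3 h. Unadjusted limma p was below 0.05 for 4, 1 and 6 of the 9 in these comparisons, beside 15%, 15.8% and 17.7% of all genes.

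Maf encodes c-Maf, a transcription factor of resident macrophages that also acts in T cells and other cells. Its signals were 145.0, 183.6 and 246.7 in controls, 325.6, 391.3, 336.7 and 315.2 at 3 h, and 236.8, 292.8, 192.8 and 197.1 at 12 h. These are from the brightest of 6 probe sets, in which all 3 h arrays were above all others. The others changed by 0.72, 0.28, 0.36, 0.50 and 0.35 at 3 h, the last 2 at dim signals. With the 6 averaged the change was 0.51 (limma adjusted p = 0.0381). In the brightest probe set the 3 h change was 0.81 ± 0.18 (SE; limma adjusted p = 0.0339). It was called in 5 of the 11 fits that left out 1 array, with limma adjusted p of up to 0.147 in the others. It was lost on leaving out control replicate 1, control replicate 2 or any 3 h replicate, and without the 5 arrays high in acinar transcripts (limma adjusted p = 0.209).

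Adgre1 encodes F4/80, the surface protein most used to identify mouse macrophages. Its signals were 133.7, 125.6 and 135.8 in controls, 91.9, 127.2, 97.4 and 105.1 at 3 h, and 86.7, 82.9, 94.6 and 104.0 at 12 h. All 12 h arrays were below all controls, and 1 of the 3 h arrays overlapped them. The means were 131.7 ± 5.39 (SD, n = 3), 105.4 ± 15.5 (SD, n = 4) and 92.05 ± 9.34 (SD, n = 4).

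The change at 12 h was -0.45 ± 0.12 (95% interval -0.70 to -0.20; unadjusted p = 0.00193, limma adjusted p = 0.074), which missed the threshold. It passed when only genes with a mean signal of at least 32 were tested (limma adjusted p = 0.0354) and with an offset of 64 (-0.33, limma adjusted p = 0.0394). In the 11 fits that left out 1 array it stayed between -0.51 and -0.41 and was called in none. The 3 h change of -0.29 ± 0.12 was not called (limma adjusted p = 0.243).

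Cd163 encodes the scavenger receptor for haemoglobin bound to haptoglobin, a gene known to be induced by glucocorticoids. Its signals were 24.2, 31.2 and 47.1 in controls, 45.6, 69.9, 70.3 and 41.9 at 3 h, and 48.3, 51.7, 35.1 and 37.3 at 12 h. Control replicate 3 lay within the 3 h range, and the other controls were below it. The 3 h change of 0.54 ± 0.19, the highest of the members at 3 h, was not called (95% interval 0.13 to 0.96, limma adjusted p = 0.182). At 12 h the difference from control was 0.25 (95% interval -0.16 to 0.67).

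Mrc1 encodes the mannose receptor CD206. Its signals were 225.9, 147.7 and 221.1 in controls, 155.7, 196.0, 140.0 and 156.4 at 3 h, and 177.6, 170.1, 155.0 and 147.7 at 12 h. Control replicate 2 lay among the treated arrays and the groups overlapped. The changes were -0.25 at 3 h (95% interval -0.58 to 0.07) and -0.24 at 12 h (95% interval -0.57 to 0.09), both with a limma adjusted p of 0.49.

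Itgax encodes CD11c, an integrin subunit shared by gut macrophages and dendritic cells. Its signals were 42.2, 29.9 and 29.4 in controls, 34.9, 33.6, 26.7 and 33.5 at 3 h, and 38.0, 23.9, 21.1 and 28.7 at 12 h. The 3 groups overlapped, and the changes were -0.04 at 3 h (95% interval -0.35 to 0.27) and -0.19 at 12 h (95% interval -0.50 to 0.12).

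Cd68 encodes a glycoprotein of the macrophage lysosome. Its signals were 68.4, 63.7 and 85.3 in controls, 49.1, 65.9, 58.8 and 53.8 at 3 h, and 60.0, 79.6, 77.6 and 64.5 at 12 h. The 3 h arrays were the lowest on average, and 3 h replicate 2 overlapped the controls. The 3 h change of -0.28 ± 0.13 (unadjusted p = 0.0495, limma adjusted p = 0.332) was not called, and at 12 h the difference from control was -0.03 (95% interval -0.31 to 0.24).

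Lyz2 encodes the lysozyme of macrophages and neutrophils. Its signals were 892.7, 901.1 and 1307.4 in controls, 905.0, 875.0, 1015.7 and 651.4 at 3 h, and 639.4, 821.9, 706.1 and 865.0 at 12 h. All 12 h arrays were below all controls. The 12 h change was -0.43 ± 0.18 (unadjusted p = 0.0333, limma adjusted p = 0.266), which was not called. Lyz2 is nearly identical in sequence to Lyz1, the lysozyme gene of Paneth cells. The 3 probe sets of Lyz1 changed by -0.34, -0.14 and 0.21 at 12 h, from the brightest to the dimmest. The dimmest had mean signals of 11.9 in controls, 15.15 at 3 h and 16.2 at 12 h. How far probe sets of Lyz1 and Lyz2 read the same RNA was not tested, so the gene behind the Lyz2 signal is uncertain.

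C1qa encodes a chain of complement C1q, which gut macrophages secrete. Its signals were 333.7, 329.9 and 472.9 in controls, 344.5, 371.6, 381.7 and 256.1 at 3 h, and 323.9, 299.2, 273.0 and 346.6 at 12 h. The groups overlapped, and the changes were -0.15 at 3 h (95% interval -0.50 to 0.20) and -0.26 at 12 h (95% interval -0.61 to 0.09). The genes of the other 2 chains, named after their values were seen, also had lower means than controls, with no call: C1qb changed by -0.32 at 3 h and -0.22 at 12 h, and C1qc by -0.20 and -0.31.

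**Figure D4:**
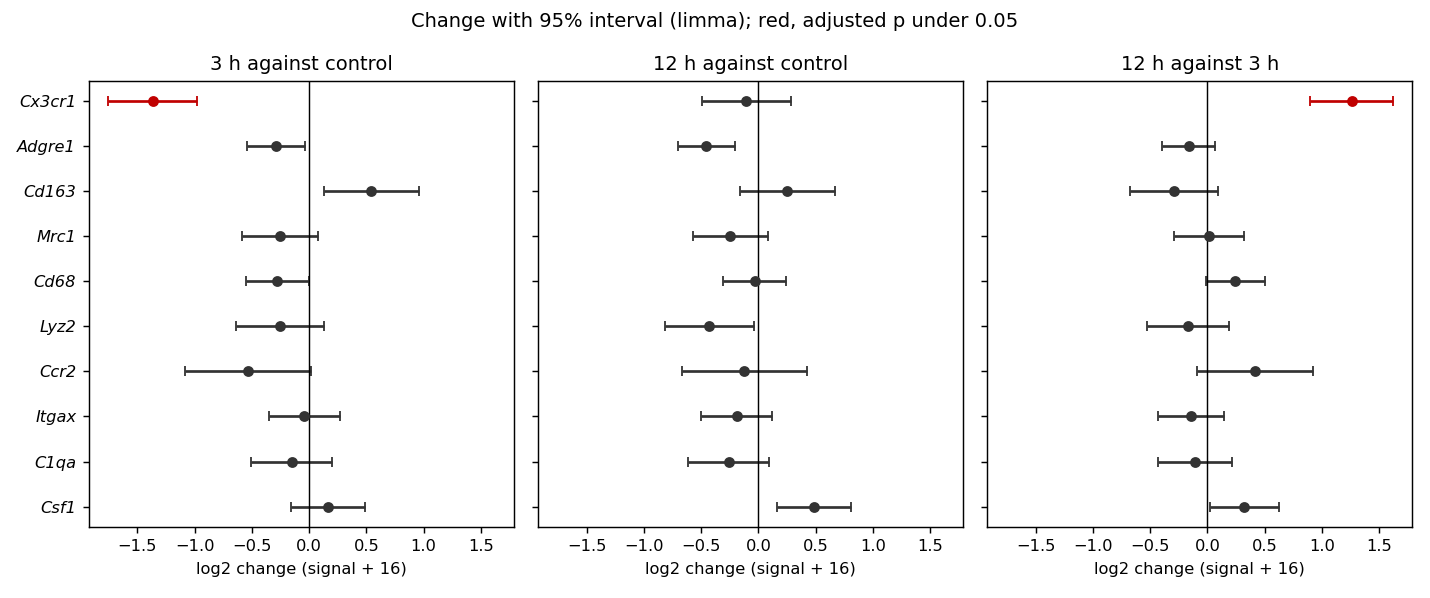
Log2 change of the 10 genes (log2 of signal + 16) in each of the 3 comparisons, with bars for the 95% confidence interval and called genes in red. Cx3cr1 is the called gene at 3 h against control and at 12 h against 3 h, and no gene is called at 12 h against control.

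At an unadjusted p below 0.05 limma gave 4 of the 10 members at 3 h, 3 at 12 h and 2 between 12 h and 3 h, where the shares of all genes were 15%, 15.8% and 17.7%. Of these members Cx3cr1 alone passed the adjusted threshold, at 3 h and between 12 h and 3 h.

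Groups that did not overlap were found for 2 members at 3 h, Cx3cr1 and Ccr2, both lower, where 8.55% of all genes were lower without overlap. At 12 h they were found for Adgre1 and Lyz2, both lower, where the share of all genes was 6.96%. Between 12 h and 3 h Cx3cr1 alone of the members was higher without overlap, where 6.28% of all genes were so. Of the 10 members 8 were lower than control at 3 h and 8 were lower at 12 h. The shares of all genes that were lower were 54.1% and 51.4%. The members' median change was -0.25 at 3 h and -0.15 at 12 h, beside medians of -0.02 and -0.01 over all genes. Between 12 h and 3 h 5 members were higher and 5 lower, with a median of -0.05. The comparisons with control use the same 3 control arrays, so their directions are not independent of each other.

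Other genes of tissue-resident macrophages, such as those of phagocytic, complement and Fc receptors, were taken from a list of 35, all measured. Of these 0 were called in any comparison. Limma gave an unadjusted p below 0.05 for 4 of them at 3 h, 9 at 12 h and 6 between 12 h and 3 h. The shares of all genes were 15%, 15.8% and 17.7%. Of the 35 genes 23 had a lower mean than controls at 3 h and 21 at 12 h, beside 54.1% and 51.4% of all genes. Without overlap with the controls, 2 were lower and 1 higher at 3 h, and 7 lower and 1 higher at 12 h. The shares of all genes that were lower without overlap were 8.55% and 6.96%. The share that was higher without overlap was 6.76% at 3 h, and at 12 h it was not counted. The median changes of the list were -0.11, -0.06 and 0.02, beside -0.02, -0.01 and 0.01 over all genes. Its summed signal, to which bright genes add most, was 8474.5 to 10042.1 in controls. It was 8119.1 to 9753.9 at 3 h and 8446.1 to 9377.0 at 12 h, so these sums overlapped.

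Genes of monocytes (12 of 14 measured), of macrophage activation (18 of 18), of MHC class II presentation (7 of 8) and of dendritic cells (11 of 12) gave no call in any comparison. Limma gave an unadjusted p below 0.05 for 3, 5 and 4 monocyte genes in the comparisons at 3 h, at 12 h and between them. For activation genes these counts were 0, 1 and 2, for MHC class II genes 0 in each, and for dendritic cell genes 1, 3 and 1. The shares of all genes in the 3 comparisons were 15%, 15.8% and 17.7%. Of the 7 MHC class II genes 6 had a lower mean than controls at each time, with medians of -0.16 and -0.31. Lower means were found for 54.1% and 51.4% of all genes.

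**Figure D5:**
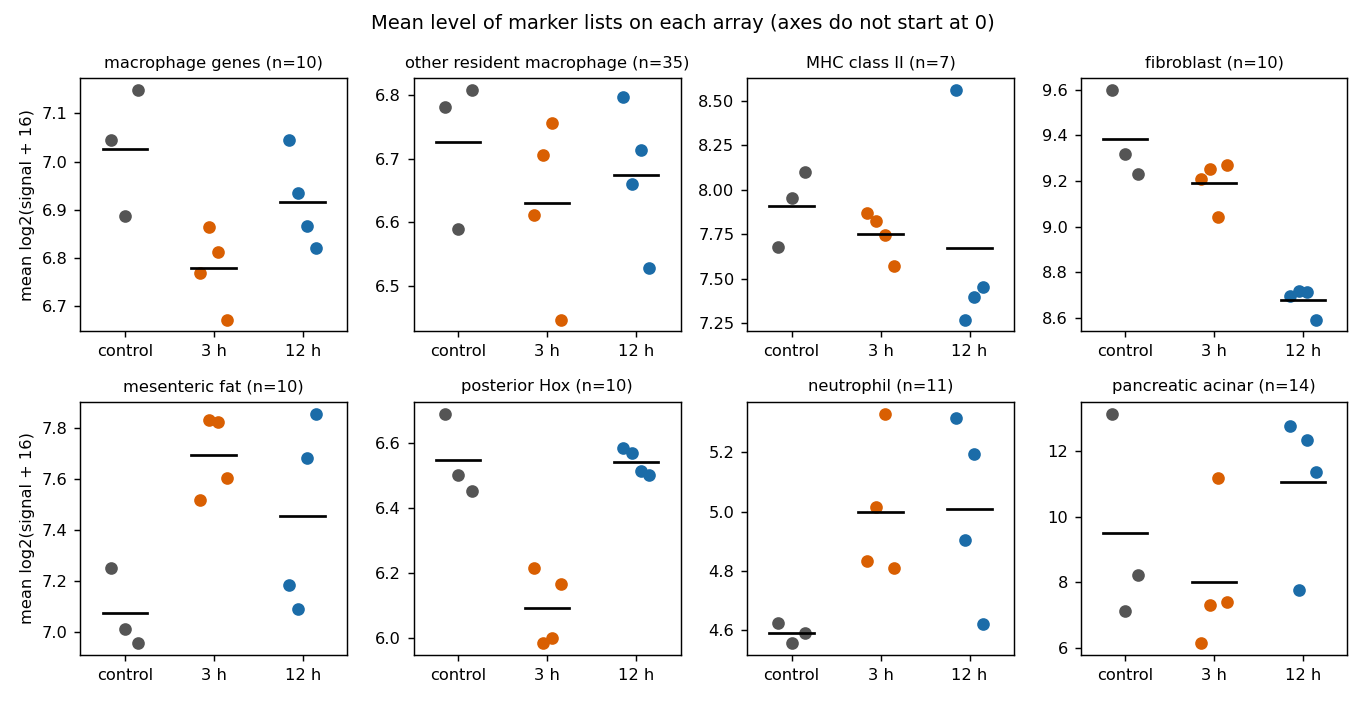
Mean log2(signal + 16) of the genes of 8 lists on each array by group (n = 3, 4 and 4), with group means as horizontal lines and axes that do not start at 0. The 10 members' mean level lies between 6.67 and 6.86 at 3 h and between 6.89 and 7.15 in controls. At 12 h it lies between 6.82 and 7.045, overlapping the controls. The members' mean includes Cx3cr1, which had the largest 3 h change of the members (-1.37). Taken over the members other than Cx3cr1, the mean level overlaps between the 3 h and control arrays. The other resident macrophage genes overlap between the groups. Fat, posterior Hox and neutrophil genes at 3 h and fibroblast genes at 12 h stand apart from control.

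Markers of some other tissue components also differed between the groups. Fat markers, 10 of 12 measured, had a summed signal of 2204.7 to 2787.9 in controls, 3717.8 to 5225.8 at 3 h and 2248.0 to 5185.2 at 12 h. Of these 10 genes 7 were higher at 3 h without overlap, where the share of all genes was 6.76%, and Fabp4, a lipid carrier of fat cells that macrophages can also make, rose by 1.16 ± 0.21 (limma adjusted p = 0.0161). The posterior Hox genes, 10 of 10 measured, are expressed towards the distal end of the gut. They summed to 1747.3 to 2280.5 in controls, 849.9 to 1259.4 at 3 h and 1705.7 to 1979.8 at 12 h. Of the 10 genes 4 fell at 3 h, where 2.54% of all genes were called. The summed Hox signal was thus low in the same 4 arrays in which Cx3cr1 was low.

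Neutrophil markers, 11 of 13 measured, summed to 90.4 to 104.9 in controls and 170.5 to 344.9 at 3 h. T and NK cell markers, 14 of 16 measured, summed to 252.4 to 277.2 and 281.2 to 490.5. Neither list had a call at 3 h. The neutrophil genes were dim, with a mean log2(signal + 16) of 4.56 to 4.63 in controls. At 3 h 8 of them were higher and 3 lower than control (median 0.21). Of the T and NK genes 10 were higher and 4 lower (median 0.11). Unadjusted limma p was below 0.05 for 4 neutrophil and 2 T and NK genes, beside 15% of all genes. Fibroblast markers, 10 of 10 measured, summed to 10476 to 13584.2 in controls, 9607.8 to 10814.4 at 3 h and 6963.5 to 7548.9 at 12 h. Of the 10 genes 6 fell at 12 h, where 1.62% of all genes were called. That is the time at which Csf1r fell and Adgre1 was lowest. Smooth muscle markers, 8 of 8 measured, summed to 19597.1 to 23716.4 in controls, 19375 to 27672.1 at 3 h and 13287.3 to 21177.6 at 12 h. All 8 had a lower mean than controls at 12 h with no call (median -0.60), beside 51.4% of all genes with a lower mean. Unadjusted limma p was below 0.05 for 6 of them at 12 h, beside 15.8% of all genes. Between 3 h and 12 h 2 of them fell, where 4.08% of all genes were called. No gene of these lists was at exactly 0 on any array. The part of these other genes in the results for Cx3cr1, Csf1r and Adgre1 was not tested. Mast cell and eosinophil, B and plasma cell and endothelial markers gave no call in any comparison.

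The genes whose pattern over the 11 arrays was most like that of Cx3cr1, by Pearson correlation of log2(signal + 16) among 10437 genes with a mean signal of at least 32, were Usf2 (r = 0.95), Plekha2 and Prkd2 (r = 0.94 each) and Gpsm2 and S100pbp (r = 0.93 each). None of the other members was among them. The genes most like C1qa were Orai1 (r = 0.90), Mrps24 and Lyz2 (r = 0.88 each) and Atp5j and Mydgf (r = 0.87 each). All values come from the same 11 arrays and the differences between groups enter each r, so they are a description of likeness only.

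Among the members, Lyz2 and C1qa varied most alike (r = 0.88 over 11 arrays, and 0.85 after the group means were removed). Cx3cr1 and Cd163 ran opposite to each other (r = -0.68, and -0.40 after the group means were removed), as did Adgre1 and Csf1 (r = -0.75 and -0.44). For Cx3cr1 and Adgre1, both surface markers of mature gut macrophages, r was 0.02 over the arrays and -0.53 after the group means were removed.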

How the data were processed

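Total RNA from 11 colon samples was biotin-labelled and hybridised, per the labels. The deposited values are intensities on a linear scale, 1 per probe set. The values show a mean of 100.0 on each array after trimming 2% at each end. The software and the summary method are not stated in the sources used here. No arrays were identical among 55 pairs, and array medians ranged from 16.8 to 23.9.

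Probe sets were named by the platform annotation, with symbols updated to RefSeq GRCm38.p6. Those with several symbols (932) or none (9160) were left out, and a gene was read from its probe set with the highest mean. Signals were tested as log2(signal + 16) with limma 3.58.1 in R 4.3.3, on all 11 arrays, 2-sided, with Benjamini-Hochberg adjustment. The mean signal of 32.2% of genes was below the offset. The number of arrays limits the precision. The procedure was tested on simulated data with independent noise and with changes only in brighter genes. That simulation does not cover dim genes such as Cx3cr1 or differences shared by many genes of an array. Members, lists and tests were chosen with earlier results of these data known. Named genes were the members, called genes of the macrophage, monocyte and dendritic lists, Csf1r, Il34, Cx3cl1 and Ccl2, up to 3 genes per other list by smallest p, and the 5 genes most correlated with Cx3cr1 and with C1qa. Ccl7, C1qb, C1qc and Lyz1 were named after their values were seen. List genes with no probe set of their own in the annotation used were not analysed here. Alternatives covered scaling, offset, level filter, probe set choice, arrays fitted, array weights, variance prior, replicate block, threshold and leaving out arrays.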

Additional observations from a re-analysis of the deposited data

Results flagged for a closer look

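In 3 of 32 groups tested, 1 array stood apart from the other 3 by a gap larger, relative to the group's range, than the 95% limit of Dixon's test, which about 5% of groups pass by chance. The gap was 0.841 of the range for Itgax at 3 h, where replicate 3 was lowest with a signal of 26.7. It was 0.93 for Cx3cl1 at 12 h, where replicate 3 was lowest with 222.1. It was 0.901 for Ccl2 at 12 h, where replicate 4 was lowest with 9.5, and that replicate was also the lowest of its group for Ccl7 and, among the members, for Csf1, Ccr2 and Mrc1. It was the highest of its group for Adgre1, Lyz2 and C1qa. The change of Cx3cr1 from control differed between 3 h and 12 h by 1.26 ± 0.17 on the log2 scale (limma adjusted p = 0.00145), with all 4 arrays at 3 h below all 4 at 12 h.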

How the results depend on the processing

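Of 825 values of single genes under the alternatives, 765 kept their direction and side of the threshold, 28 lost a call, 13 gained one and 19 turned sign. The members called at 3 h numbered 1, and 0 without the 5 arrays high in acinar transcripts (1 to 1 on leaving out single arrays). At 12 h 0 members were called, and 1 with an offset of 64, a mean signal of at least 32 or an adjusted p below 0.1 (Adgre1 each time; 0 to 1 on leaving out single arrays). Between 12 h and 3 h 1 was called, and 0 without the acinar-high arrays (1 to 2 on leaving out single arrays). Of the other 49 macrophage genes 1 was called at 3 h. This became 0 with an offset of 1 or without the acinar-high arrays and 2 with only the 2 groups fitted (0 to 2 on leaving out single arrays). At 12 h 1 was called. This became 0 with a median shift, an offset of 1, all probe sets fitted, only the 2 groups, array weights or no acinar-high arrays, and 2 with an offset of 64, the level filter, a trended robust prior or an adjusted p below 0.1 (0 to 3 on leaving out single arrays). Between 12 h and 3 h 0 were called. This became 1 with quantile normalization or averaged probe sets, 2 with an offset of 64 or array weights, and 4 with the level filter, the trended prior or an adjusted p below 0.1 (0 to 4 on leaving out single arrays). At the main settings 2.54%, 1.62% and 4.08% of all genes were called at 3 h, at 12 h and between them. The number of all genes called also changed with the setting. Its share under each alternative is not given here, so these counts are not read as results about the genes. The cause of the changes in count was not tested.

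With the replicate number as a block, Csf1 was called at 12 h (0.59, limma adjusted p = 0.0442), so members called became 1, and Ccl7 was called as well (1.61, limma adjusted p = 0.038). Maf and Csf1r lost their calls (limma adjusted p = 0.0547 and 0.0662), so the other macrophage genes called became 0 at 3 h, while at 12 h they numbered 1, Ccl7 in place of Csf1r. Same-numbered arrays deviated together with r of -0.21 to 0.31 over 10 pairs, 3 of them above 0.1, and 5 of 11 arrays correlated best with their own number, so the numbers were not taken to pair the arrays.

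The values that turned sign were all uncalled. On leaving out single arrays, Ccr2 at 12 h ranged from -0.318 to 0.0967, Cd68 at 12 h from -0.1043 to 0.0687, Itgax at 3 h from -0.1048 to 0.0743, C1qa at 3 h from -0.2377 to 0.0119 and Mrc1 between 12 h and 3 h from -0.0497 to 0.0978. Ccr2 at 12 h was 0.0754 with averaged probe sets, and Cd68 at 12 h was 0.0058 with array weights. Without the acinar-high arrays Ccr2 was 0.0749 and Cd68 0.0894 at 12 h, Itgax was 0.1312 at 3 h, and Cd163 was 0.0061 and Lyz2 0.0344 between 12 h and 3 h. Itgax was not tested under the level filter. Signals of Cx3cr1 were below the lowest array median, 16.8, on 3 of the 4 arrays at 3 h, which limits the precision of its change.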

Other observations

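The MHC class II genes, which gut macrophages, dendritic cells and B cells use to present antigen, were uneven among the 12 h arrays. Their mean log2(signal + 16) over 7 genes was 8.56 on 12 h replicate 1 and 7.27 to 7.46 on the other 12 h arrays, against 7.68 to 8.10 in controls. Among the 10 macrophage members, replicate 1 was the highest of its group for Cx3cr1 (65.3), Mrc1 (177.6), Ccr2 (104.1), Itgax (38.0) and Csf1 (125.3) and the lowest for Cd68 (60.0) and Lyz2 (639.4).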
